A study of Mus musculus with 12 samples.

Results

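Germ cells of the mouse testis divide in the fetus, stop, and divide again after birth. This account compares the stages on either side of that pause: germ cells at E13.5 (embryonic day) and germ cells at P3 (postnatal day). A gene entered the comparison when its normalized count, that is its read count divided by a size factor for the library, was at least 10 in at least 3 of the 6 libraries. This held for 18246 of the 55487 genes in the table. Among the genes nearest that limit, the 501 with the third highest library from 10 to 12 had median stage means of 8.55 at E13.5 and 11.6 at P3. The 718 left out with the third highest library from 8 to 10 had medians of 6.0 and 9.91.

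The study sequenced RNA from 12 samples, 3 for each stage, namely E13.5, E16.5, P0 (birth) and P3; the 6 samples at E13.5 and P3 are compared here, and the others enter for the spread and for the course over time. All were male germ cells from testes of Mvh-Venus transgenic mice, in which a fluorescent protein under the control of the germ cell gene Mvh (Ddx4) marks the cells. RNA was amplified with a SMART-Seq v4 kit, and no treatment is named. The labels disagree on genotype: titles and source names call both groups wild type, whereas a genotype tag reads Morc1 (+/-) for the E13.5 samples and Morc1 (-/-) for the P3 samples. Stage and a difference in Morc1 genotype, if the tag were right, cannot be told apart in this comparison. Morc1 itself, at chromosome 16, 48431237 to 48630900 in GRCm38, had normalized counts of 1621, 1830.3 and 1641 in the E13.5 libraries and 10929, 10584 and 11129 in the P3 libraries (log2 fold change 2.68, SE 0.07, limma adjusted p 3.48e-15). The P3 libraries, tagged homozygous mutant, thus held more Morc1 reads than the E13.5 libraries; reads counted over a whole gene do not show whether part of it is deleted. The labels do not say whether samples came from separate animals, so the p-values below measure the spread between samples, which may be technical.

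Primordial germ cells that have reached the fetal testis keep a transcription programme shared with pluripotent stem cells while they still proliferate. They then enter arrest as gonocytes (prospermatogonia), lose that programme and remethylate their genome under the guidance of PIWI-interacting RNAs. Around birth they resume division and become spermatogonia, some of which act as stem cells that depend on GDNF from Sertoli cells, while others respond to retinoic acid and differentiate.

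Reads assigned to genes numbered 41490756 to 51533747 in the 6 libraries, and 22678 to 22774 genes had a read at E13.5 against 25749 to 26285 at P3. The 37 mitochondrial genes were listed at 0 in all libraries, as was Rrm2. Germ cell identity was checked on 7 marker genes, whose summed normalized count was 282104 to 291859 at E13.5 and 245728 to 261063 at P3. The sum hides differences between members. By the test described below, 2 were higher at P3, 3 were lower and 2 did not pass, with log2 fold changes from -1.92 to 1.85. The fluorescent protein that marks the cells is under the control of Ddx4, so the level of Ddx4 is not an independent check. Ddx4 and Dazl, RNA-binding proteins that define germ cells, stood at 58928 ± 3355 at E13.5, and 49336 ± 277 at P3 for Ddx4 and 139041 ± 3787 at E13.5, and 128882 ± 7580.3 at P3 for Dazl (SD, n = 3). Markers of other testis cells were far lower, and their values stand beside the results they accompany. P3 library 3 stood apart in mast cell markers, with a summed level of 322 over 8 genes against 3.9 or less in the other P3 libraries.

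The stages differed widely. Of the 18246 genes, 13972 (76.6%) differed in limma's moderated test at a Benjamini-Hochberg adjusted p under 0.05, 7195 higher at P3 (39.4% of genes tested) and 6777 lower (37.1%). For 79.6% of genes, every library of 1 stage lay above every library of the other. Changes of at least 2-fold were found for 8308 genes (45.5%), 5170 higher and 3138 lower; at least 8-fold for 2061 higher and 485 lower; and at least 32-fold for 522 and 116. The balance differed with abundance: of 1120 genes with a mean of at least 10000, 196 were higher and 742 lower, and of 6855 with a mean of at least 1000, 1753 were higher and 3848 lower. The median log2 fold change was 0.02 over all genes tested. When all libraries were instead scaled to the same total, that median shifted by 0.33, and increases made up 65.4% of the changes rather than 51.5%. Changes smaller than this shift therefore have a direction only relative to the scaling of the file. Of the genes described below as not passing, Mcm5, Mcm7, Cdc45, Rrm1, Pcna, Ccna2, Mki67, Acvr2a, Lin28a, Lin28b, Dazl and Alpl passed as higher at P3 under the same total for all libraries.

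Every log2 fold change is P3 against E13.5 on log2(normalized count + 1), which understates changes of genes with few reads, and every library value is a normalized count. Fewer cells of a type and less RNA per cell cannot be told apart in such bulk samples. Reads of genes with near copies are less certain: the share of 50-base words also found in other genes' transcripts was 17% for Dppa3, 23.3% for Mcm7, 21% for Ldhb, 24.5% for Etv5 and 24.9% for Cdkn1c. The genes named are those of a fixed rule on size and list membership; others, such as Pou5f1, Dnmt1 and Etv5, were chosen after their values had been seen.

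Several of the largest decreases were in genes of the early germ line. The 15 largest also held genes of other kinds, such as Mup6, Msc, Mkx, Lrrn4 and Ucma. Dppa3 (Stella), a maternal and germ line factor that protects DNA methylation marks, at chromosome 6, 122626410 to 122630272, had 82674, 78046 and 78521 in the E13.5 libraries and 21.3, 11.8 and 20.2 in the P3 libraries (log2 fold change -12.09, SE 0.16, limma adjusted p 1.09e-18). No P3 library came near the E13.5 level. Lefty1, a secreted inhibitor of Nodal, at chromosome 1, 180935022 to 180938400, had 24378, 26551 and 28328 in the E13.5 libraries and 7.75, 18.7 and 7.09 in the P3 libraries (log2 fold change -11.21, SE 0.27, limma adjusted p 7e-16). The membrane proteins Ifitm3 and Ifitm1, long used as marks of primordial germ cells, had log2 fold changes of -10.16 and -9.17. Among the largest increases, Mei1, which is needed for meiotic double-strand breaks, had 4.22, 0 and 7.36 in the E13.5 libraries and 2329.6, 2521 and 2724 in the P3 libraries, and Gfra1, the GDNF coreceptor of spermatogonial stem cells, at chromosome 19, 58235604 to 58455909, had 21.1, 30.5 and 17.9 in the E13.5 libraries and 14102, 14832 and 16872 in the P3 libraries (log2 fold change 9.33, SE 0.16, limma adjusted p 1.5e-17). The metallothionein Mt1 had 19, 17.4 and 43.1 in the E13.5 libraries and 7786, 6798 and 5609 in the P3 libraries. None of these genes overlapped between the stages, as the rule that named them required. Other abundant genes in the same class were Afp, alpha-fetoprotein (log2 fold change 8.03), Mmp9, a secreted protease that degrades matrix (7.96), and, lower, Ddx58 (RIG-I), a sensor of viral RNA, with 7742, 7499 and 7288 in the E13.5 libraries and 85.3, 80.5 and 106 in the P3 libraries (-6.37). Zmynd15, a transcriptional repressor of later spermatogenesis, and Snap25, a vesicle fusion protein, had no read at E13.5 and were at least 118-fold and at least 86.1-fold higher at P3, against a floor of 3 reads per library.

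Leaving out 1 library moved the fitted value of 9 of the 30 genes with the largest changes by over 1.5-fold, all of them genes with few reads at the lower stage, and ended no call among the 30. Mei1 was at 8.58 without E13.5 library 3 and 10.11 without library 4. Without E13.5 library 1, Tmem132e was at 10.33, Cd93 at 9.91 and Itga7 at 9.11 on the log2 scale. Among the decreases, Ifitm3 was at -10.79 and Mkx at -7.08 without P3 library 1, Otx2 was at -8.33 without P3 library 1 and -10.07 without library 4, Msc was at -6.78 without P3 library 3 and -8.69 without library 4, and Ucma was at -8.08 without P3 library 4.

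**Figure D1:**
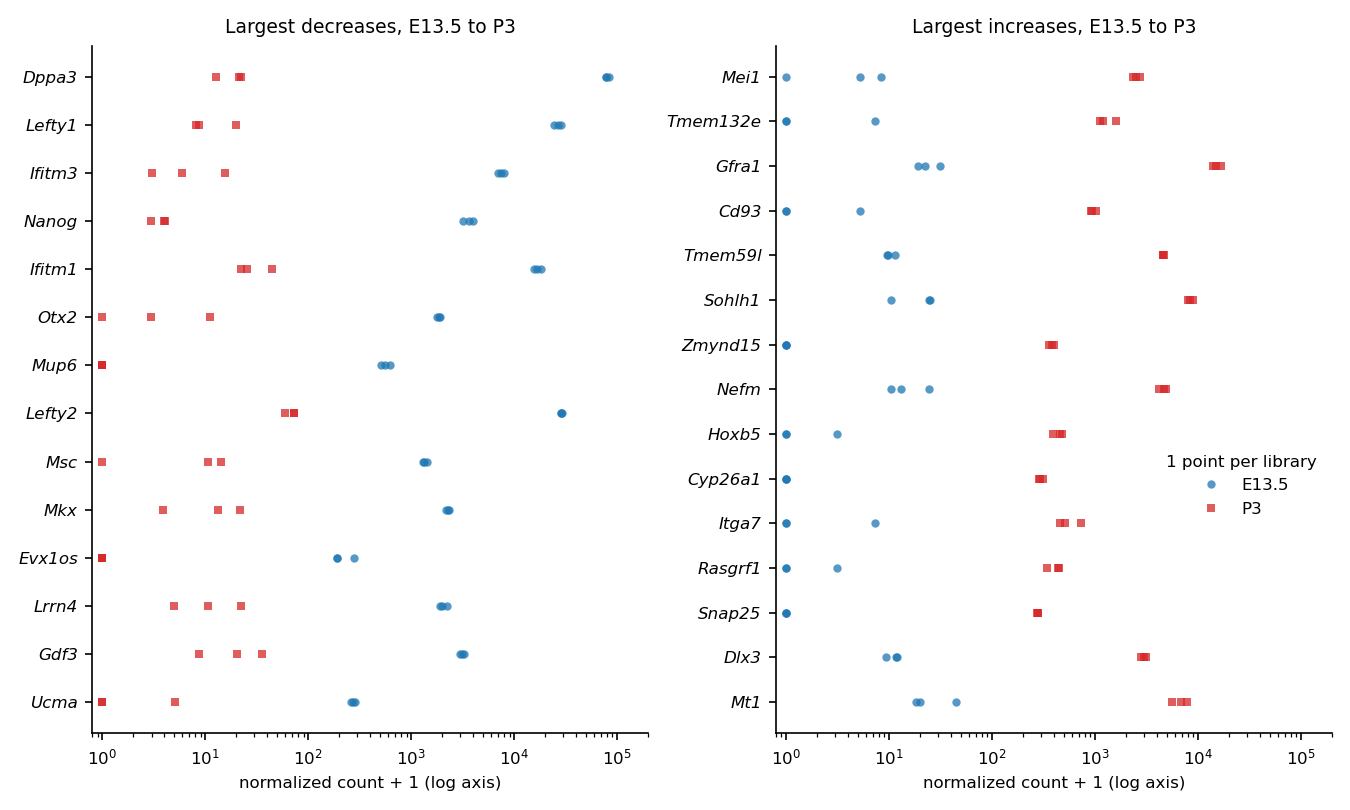
Normalized count + 1 (log axis) of 14 of the 15 genes with the largest decreases (left) and the 15 with the largest increases (right) at P3 against E13.5, with 1 point for each of the 3 libraries of a stage. In every gene shown the E13.5 and P3 points lie apart, as the rule that chose these genes required. Dppa3 spans from 11.8 to 82674 normalized counts before the 1 is added.

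Of the 24 gene lists examined, DNA replication had the largest share of members with a 95% interval within 2-fold, 19 of 22. Its promoters are shown first, because 21 of its 22 members tested had lower means at both E16.5 and P0 than at either E13.5 or P3, against 33.3% of all genes tested. The 250 bases before the start site are given 5′ to 3′ from RefSeq (GRCm38.p6), with the E2F site TTTCGCGC or TTTGGCGC, read on both strands and including overlapping matches, in capitals:
Mcm5, chr8:75109259-75109508, + strand: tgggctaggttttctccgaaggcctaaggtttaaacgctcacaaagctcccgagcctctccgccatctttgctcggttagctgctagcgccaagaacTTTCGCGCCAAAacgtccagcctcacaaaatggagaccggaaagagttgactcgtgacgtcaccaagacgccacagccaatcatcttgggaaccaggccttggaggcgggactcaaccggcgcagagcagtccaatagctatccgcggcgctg
Mcm6, chr1:128359706-128359955, - strand: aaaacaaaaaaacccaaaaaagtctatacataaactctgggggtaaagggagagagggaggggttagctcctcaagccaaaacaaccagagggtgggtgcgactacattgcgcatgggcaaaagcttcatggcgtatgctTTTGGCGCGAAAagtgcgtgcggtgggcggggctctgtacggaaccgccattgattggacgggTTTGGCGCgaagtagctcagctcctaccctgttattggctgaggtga
E2F factors are known to bind such sites in genes of the S phase. A match was found in 4 of 22 replication promoters (18.2%), those of Mcm5, Mcm6, Orc1 and Pola1, and in 0.654% of all 32851 promoters of the table and 1.09% of promoters of the genes tested. It was also in 2 of 18 DNA methylation promoters (11.1%), but in only 1 of 21 cell cycle promoters (4.76%). A link between the site and the course of a list was not tested.

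In the DNA replication list, of 22 members tested, 4 were higher, 10 were lower and 8 did not pass, with a median log2 fold change of -0.16 (all genes 0.02); Rrm2, the other listed gene, was at 0. Over all genes tested, 36.8% had an interval within 2-fold. The MCM genes encode the subunits of the replicative helicase, and Mcm5 had 36839, 37781 and 38265 in the E13.5 libraries and 38723, 37869.8 and 40420.4 in the P3 libraries (log2 fold change 0.05, adjusted p 0.592). Mcm7 had 36270.5, 34488 and 37788 in the E13.5 libraries and 37032, 37366 and 36141 in the P3 libraries. The stages overlapped for both genes, while the means at E16.5 and P0 were 12539 and 3436 for Mcm5. Cdc45, which completes the helicase, had a log2 fold change of 0.00, and Rrm1, the large subunit of ribonucleotide reductase, of 0.13. Pola1, the catalytic subunit of the polymerase that starts each strand, was the member that differed most, with 3807, 3447 and 3551 in the E13.5 libraries and 1017, 1117 and 1139.7 in the P3 libraries (log2 fold change -1.72, SE 0.09, limma adjusted p 1.39e-11). The licensing factors Cdc6 and Cdt1 were higher by 0.55 and 0.53, and Mcm6 fell by 0.54 on the log2 scale. The calls of Mcm2 (log2 fold change -0.21) and Mcm3 (0.19) were lost without single libraries, with adjusted p up to 0.14 for both, for Mcm2 without P3 library 3 and for Mcm3 without P3 library 4. With equal library totals the list turned, with 11 higher and 4 lower and a median of 0.17.

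Cell cycle genes shared the dip during arrest, with 23 of 25 below both E13.5 and P3 at E16.5 and P0, but the levels on either side differed more. The dip was not particular to these lists, as 16 of 19 oxidative phosphorylation members and 12 of 20 Polycomb members had it too. The scaling of the file lowers P0 against equal library totals, and the dip was not tested under equal totals. In the cell cycle list, of 25 members tested, 7 were higher, 14 were lower and 4 did not pass. The median log2 fold change was -0.42. With the same totals for all libraries the counts were 10 higher and 12 lower. Pcna, the sliding clamp of DNA polymerases, had 23699.7, 23981 and 23898 in the E13.5 libraries and 23926, 22907 and 20475 in the P3 libraries (log2 fold change -0.09, adjusted p 0.255), and Ccna2, the S-phase cyclin, was at -0.05 (adjusted p 0.68). Mki67, the antigen of cycling cells, was at 0.31 (limma adjusted p 0.101); it passed in the fit of only the 6 libraries (adjusted p 0.0167), in edgeR (0.0471) and in DESeq2 (0.0382). Lower members included the mitotic cyclin Ccnb2, with a log2 fold change of -1.29, the kinase Plk1 (-0.68) and Mybl2, an activator of mitotic genes (-1.58). Foxm1, another activator of mitotic genes, was higher at 0.34, a call lost without E13.5 library 3 (adjusted p 0.0658) and without P3 library 4 (0.123). The kinase Aurkb (-0.32) and the checkpoint gene Bub1b (-0.42) lost their calls with the same totals for all libraries. A CCAAT box, letters CCAAT on either strand, was in 66.7% of 21 promoters of the list and in 35.1% of promoters of the genes tested. It was also frequent in other lists, in 72.2% of 18 spermatogonial stem cell promoters and 59.1% of 22 DNA replication promoters. The cell cycle homology region TTTGAA was in 23.8% of the cell cycle list and 10.9% of promoters of the genes tested, and in 20.8% of 24 Polycomb promoters.

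The D-type cyclins, which with Cdk4 or Cdk6 pass growth signals to the retinoblastoma proteins, changed places. Ccnd2, at chromosome 6, 127125162 to 127152193, had 571, 621 and 644 in the E13.5 libraries and 39378, 37989.6 and 35523 in the P3 libraries (log2 fold change 5.94, SE 0.13, limma adjusted p 3.67e-16). Ccnd1 had 599.6, 769 and 854 in the E13.5 libraries and 7891, 7139.5 and 7119 in the P3 libraries (log2 fold change 3.33), and Ccnd3 had 9579, 9567 and 9789 in the E13.5 libraries and 12639, 12552 and 13461 in the P3 libraries (0.42). Per kilobase of exon, Ccnd3 was the highest of the 3 at E13.5, at 1099 normalized counts against 157 for Ccnd1 and 65 for Ccnd2, whereas at P3 Ccnd2 was the highest, at 3999 against 1568 for Ccnd1 and 1468 for Ccnd3. Ccnd1 is less certain, since 21.6% of the 50-base words of its transcript occur in other genes' transcripts and 23.4% of its exons overlap another gene. The partner kinases were lower at P3, Cdk6 at -1.63 and Cdk4 at -0.75. Among 12 inhibitors of the cycle, 4 were higher and 5 lower, or 5 higher and 3 lower with equal library totals: Cdkn1c (p57) had 3498, 3238 and 3353 in the E13.5 libraries and 1498, 1485 and 1259 in the P3 libraries (-1.25), and Gadd45a, a growth arrest gene, was higher by 1.83.

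**Figure D2:**
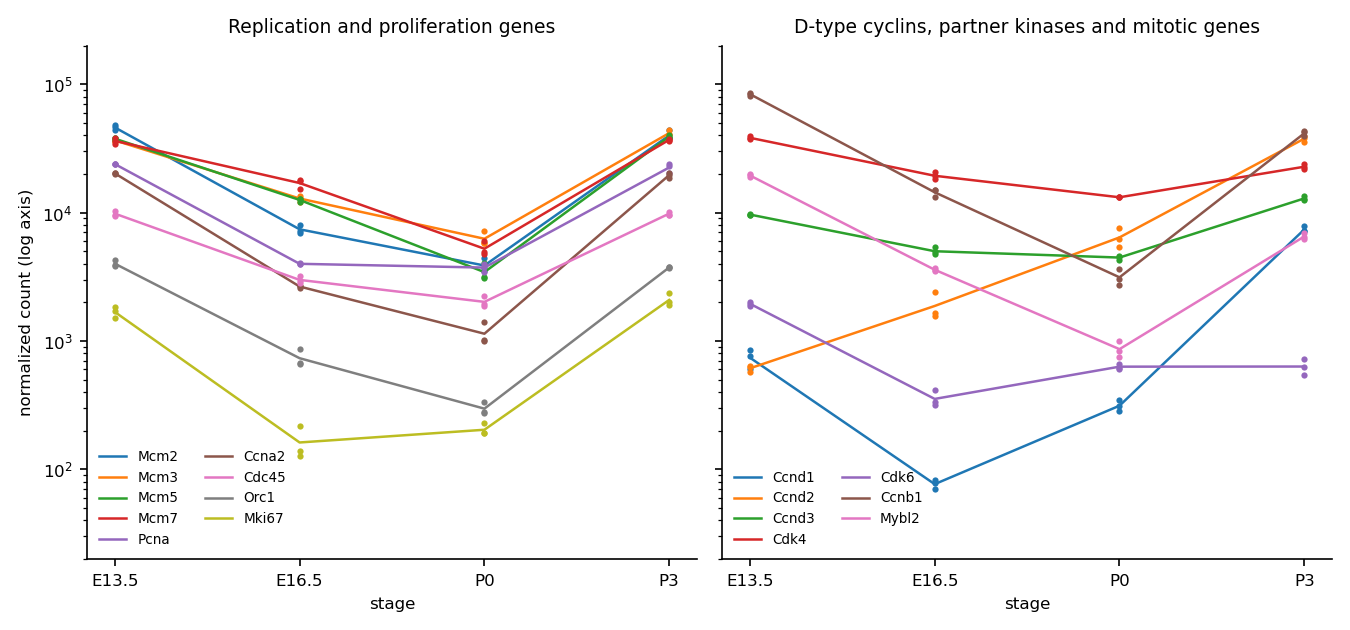
Normalized counts (log axis) of 9 replication and proliferation genes (left) and of D-type cyclins, their kinases and mitotic genes (right) at the 4 stages; points are the 3 libraries of a stage and lines join the means. Mcm5 stood at 3436 at P0 between means of 37628 at E13.5 and 39004 at P3, whereas Ccnd2 went from 612 at E13.5 to 37630 at P3.

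Pluripotency-associated genes fell almost as a group. The promoter of Nanog, the homeodomain factor of pluripotent cells, is shown with the core of the octamer bound by POU factors, TTTGCAT on either strand, in capitals:
Nanog, chr6:122707239-122707488, + strand: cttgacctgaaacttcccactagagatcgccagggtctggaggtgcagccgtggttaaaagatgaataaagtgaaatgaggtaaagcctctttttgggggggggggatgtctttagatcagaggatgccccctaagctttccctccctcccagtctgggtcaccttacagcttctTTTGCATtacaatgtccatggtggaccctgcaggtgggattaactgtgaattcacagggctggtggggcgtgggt
The core was in 4 of 17 promoters of the list (23.5%, those of Nanog, Sox2 and Zfp42) and in 4.12% of all promoters. It was also in 3 of 18 spermatogonial stem cell promoters (16.7%), all of Egr2, and in 4 of 24 meiotic prophase promoters (16.7%). In the pluripotency-associated list, of 20 members tested, 1 was higher, 16 were lower and 3 did not pass. The median log2 fold change was -3.28, or -3.19 with 2 genes at the floor at P3 set to their bound. With equal library totals the counts were 3 higher and 16 lower. Nanog had 4006, 3627 and 3214 in the E13.5 libraries and 1.94, 2.95 and 3.04 in the P3 libraries, at least 1220.1-fold lower. No P3 library held more than 3 Nanog reads. Pou5f1 (Oct4) fell less, with 13346, 13145 and 13275 in the E13.5 libraries and 1853, 1754 and 1755 in the P3 libraries (log2 fold change -2.89, SE 0.07, limma adjusted p 3.6e-16), and Sox2, its partner, was at -3.92. Gdf3, a signal of the Nodal class, was at -7.39. Klf4, a zinc finger factor of the same network, was the 1 member that was higher (1.03). The RNA-binding proteins Lin28a, with 1718, 1308 and 1463 in the E13.5 libraries and 1467, 1535 and 1719 in the P3 libraries, and Lin28b did not pass, nor did Sall4, a zinc finger factor of stem cells and spermatogonia (-0.18, adjusted p 0.0957).

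In the Nodal pathway the ligand, its coreceptor and its targets fell, and receptors and SMAD proteins differed by less than 2-fold. Among its genes, of 11 members tested, 0 were higher, 8 were lower and 3 did not pass, with a median log2 fold change of -4.38. With equal library totals the counts were 2 higher and 6 lower. The ligand Nodal had 4299, 4237 and 4309 in the E13.5 libraries and 48.5, 59.9 and 86 in the P3 libraries (log2 fold change -6.06, SE 0.25, limma adjusted p 6.85e-13), and Tdgf1 (Cripto), its coreceptor, was at -6.14. Lefty2, a target and inhibitor of the pathway, had 28237, 28478 and 28828 in the E13.5 libraries and 58.1, 71.7 and 71.9 in the P3 libraries (-8.71). The nuclear partner of the SMAD proteins, Foxh1, was at -4.38. By contrast the type II receptor Acvr2a had 1169, 1066 and 951 in the E13.5 libraries and 1024, 1258 and 1067 in the P3 libraries (log2 fold change 0.07, 95% interval -0.17 to 0.31). Lefty1 and Lefty2 lie near each other on chromosome 1 and share sequence, with 17.9% and 12% of 50-base words found in other transcripts, so reads could be divided between them.

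Genes listed for primordial germ cells, both factors that specify these cells and their markers, mostly went the same way. Of the 15 genes in this mixed list, 1 was higher, 12 were lower and 2 did not pass, with a median log2 fold change of -1.75. With equal library totals the counts were 3 higher and 11 lower. Prdm14, a regulator that founds the germ line, had 3644, 3664 and 3565 in the E13.5 libraries and 19.4, 42.2 and 18.2 in the P3 libraries (log2 fold change -7.14, SE 0.24, limma adjusted p 5.11e-14), and Prdm1 (Blimp1) was at -3.63. Nanos2, a translational repressor of male fetal germ cells and of stem cells, had 635, 681 and 649 in the E13.5 libraries and 113, 123 and 88.1 in the P3 libraries, although 47.4% of its 50-base words are shared and 49.0% of its exons overlap another gene. Kit, the stem cell factor receptor, had 8113, 7487 and 6229 in the E13.5 libraries and 2588, 3198 and 3632 in the P3 libraries (log2 fold change -1.22). The germ cell marker Dazl (-0.11, adjusted p 0.189) and Alpl, tissue-nonspecific alkaline phosphatase (-0.13, adjusted p 0.17), did not pass.

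Genes of spermatogonial stem cells were mostly higher at P3. In this list, of 22 members tested, 15 were higher, 2 were lower and 5 did not pass, with a median log2 fold change of 2.30. Besides Gfra1, the GDNF receptor Ret had 1421, 1414 and 1411 in the E13.5 libraries and 12314, 12665 and 16008 in the P3 libraries (log2 fold change 3.26, SE 0.11, limma adjusted p 3.35e-14), the repressor Bcl6b had 22.2, 40.3 and 11.6 in the E13.5 libraries and 5383, 5484 and 5974 in the P3 libraries (7.94), and Zbtb16 (PLZF), required for self-renewal, had 13.7, 26.1 and 40 in the E13.5 libraries and 2113, 2202 and 2164 in the P3 libraries (6.41). All values of these genes at P3 lay above all values at E13.5. Others did not pass: Lhx1, a homeodomain factor induced by GDNF, had 3873, 3593 and 3634 in the E13.5 libraries and 3076, 3220.1 and 3209 in the P3 libraries (log2 fold change -0.22, 95% interval -0.63 to 0.18), and it passed in the fit of only the 6 libraries (adjusted p 0.00507), and the values of the stages did not overlap. Its means at E16.5 and P0 were 86.9 and 115. Etv5, also induced by GDNF, followed the same course, at 20956, 1049, 1257 and 18691 from E13.5 to P3 (P3 against E13.5, -0.17, adjusted p 0.267). Lower at P3 were Nanos2 and the stress gene Ddit4 (-3.38).

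Genes of spermatogonial differentiation went both ways, and of those of the response to retinoic acid more were higher than lower at P3. The promoter of Sohlh1, a helix-loop-helix factor of differentiating spermatogonia, holds the E-box CACGTG 3 times, in capitals:
Sohlh1, chr2:25847249-25847498, - strand: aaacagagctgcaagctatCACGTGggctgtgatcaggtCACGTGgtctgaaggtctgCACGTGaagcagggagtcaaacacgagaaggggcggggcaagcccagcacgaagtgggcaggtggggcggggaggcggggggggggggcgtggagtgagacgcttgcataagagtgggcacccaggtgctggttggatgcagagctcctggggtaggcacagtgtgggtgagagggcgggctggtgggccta
Such an E-box, which reads the same on both strands, was in 6.02% of all promoters, in 1 of 20 of the differentiation list (5.0%) and in 1 of 29 of the retinoic acid list (3.45%). Sohlh1, at chromosome 2, 25842995 to 25847248, had 23.2, 23.9 and 9.46 in the E13.5 libraries and 8868, 8284 and 7906 in the P3 libraries (log2 fold change 8.82, SE 0.22, limma adjusted p 1.29e-15), whereas its partner Sohlh2 had 17326, 16719.6 and 16834 in the E13.5 libraries and 10124, 10170.1 and 9776 in the P3 libraries (-0.76). Stra8, the gene by which germ cells respond to retinoic acid, had 154, 106 and 115 in the E13.5 libraries and 4296, 3858 and 3656 in the P3 libraries (log2 fold change 4.98, SE 0.14, limma adjusted p 4.17e-15). The 2 stages did not overlap for any of these genes. In the differentiation list, of 17 members tested, 8 were higher, 6 were lower and 3 did not pass, with a median log2 fold change of 0.20. Over all genes tested, 39.4% were higher and 37.1% lower, a balance near that of this list. Neurog3, a mark of progenitor spermatogonia, was lower (-1.79), as were Kit and Nanos3. In the retinoic acid list, of 20 members tested, 11 were higher, 5 were lower and 4 did not pass, with a median log2 fold change of 1.2, with 3 genes at the floor at E13.5. Cyp26a1, which degrades retinoic acid, had no read at E13.5 and stood at 284, 310.3 and 293 at P3, at least 92.5-fold higher, and Dhrs3, which reduces retinal, was higher by 4.31. Among receptors and carriers, Rxrb (-1.90) and Crabp2 (-1.55) were lower.

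Genes that act in meiosis were mostly higher at P3. In this list, of 24 members tested, 15 were higher, 6 were lower and 3 did not pass, with a median log2 fold change of 0.64, and 10 of the 15 reached 2-fold. Syce3, of the central element of the synaptonemal complex, had 36.9, 38.1 and 35.8 in the E13.5 libraries and 718, 669.8 and 592 in the P3 libraries (log2 fold change 4.12, SE 0.20, limma adjusted p 4.31e-12). Rad21l, a meiotic cohesin, was at the floor at E13.5 and at least 55.4-fold higher. Hormad2, which monitors chromosome axes, was lower (-1.18). Several others were already abundant at E13.5, such as Tex11, which acts in recombination, with 8049 against 14102 at P3.

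Genes that silence transposons were mostly higher at P3. The E-box CACGTG was in 10 of 25 of its promoters (40.0%), from 8 genes, some with several start sites. It was in 29.2% of 24 meiotic prophase promoters and in 8.0% of promoters of the genes tested. The promoter of Tdrd9, a helicase of the PIWI pathway, holds it at 2 places, in capitals:
Tdrd9, chr12:111971309-111971558, + strand: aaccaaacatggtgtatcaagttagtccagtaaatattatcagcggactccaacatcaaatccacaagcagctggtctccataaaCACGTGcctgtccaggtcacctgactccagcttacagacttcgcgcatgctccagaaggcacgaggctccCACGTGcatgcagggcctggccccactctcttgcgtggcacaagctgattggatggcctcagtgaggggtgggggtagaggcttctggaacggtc
Here, of 24 members tested, 18 were higher, 4 were lower and 2 did not pass, with a median log2 fold change of 1.19, and 20 were higher and 2 lower with equal library totals. Tdrd9 had 252, 233 and 239.8 in the E13.5 libraries and 4275, 4729.6 and 5536 in the P3 libraries (log2 fold change 4.31, SE 0.09, limma adjusted p 1.59e-16). Spocd1, which links PIWI to DNA methylation in the nucleus, had 21.1, 7.62 and 6.31 in the E13.5 libraries and 762, 679 and 882 in the P3 libraries (6.11). Both lay far below their E16.5 means, of 21131 and 24685. Piwil4 (Miwi2), the nuclear PIWI protein, was at 514 at E13.5, 32924 at E16.5 and 3216 at P3. Tdrd6, a tudor protein of germ granules, was higher by 4.56, or by 3.96 without E13.5 library 1. Tdrd5, another tudor protein, was lower, with 16738, 14170.0 and 14401 in the E13.5 libraries and 5985, 6173 and 7068 in the P3 libraries (-1.24).

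The enzymes of DNA methylation differed member by member. In a list of 12, 6 were higher, 4 lower and 2 did not pass. With equal library totals the counts were 7 higher and 2 lower. The interval given below for Dnmt1 does not cover that choice of scaling. Dnmt1, which maintains methylation, had 12869.5, 11467 and 11913 in the E13.5 libraries and 11538, 11585 and 13734 in the P3 libraries (log2 fold change 0.02, 95% interval -0.19 to 0.23), but Uhrf1, which brings it to replicated DNA, had 7929, 7142 and 7972 in the E13.5 libraries and 30251, 30377 and 34049.5 in the P3 libraries (2.04). The de novo enzyme Dnmt3b had 305, 194 and 317 in the E13.5 libraries and 1901, 1865 and 2181 in the P3 libraries (2.89), and Dnmt3l, its catalytically inactive partner, was higher by 4.85, with 502 to 564 in the P3 libraries against a mean of 20342 at E16.5. The TET dioxygenases, which oxidize methylcytosine, parted: Tet1 had 5871, 5911 and 6137 in the E13.5 libraries and 65.9, 87.4 and 131 in the P3 libraries (log2 fold change -6.02, SE 0.19, limma adjusted p 2.37e-14), Tet2 was at -3.86, and Tet3 had 36.9, 21.8 and 41 in the E13.5 libraries and 371, 361 and 335 in the P3 libraries (3.43). Per kilobase of exon, Tet1 was the highest of the 3 at E13.5, at 386, and Tet3 at P3, at 21.3 against 6.12 for Tet1.

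Genes of repressive histone marks were mostly lower by small amounts. For H3K9 methylation, of 20 members tested, 3 were higher, 15 were lower and 2 did not pass, with a median log2 fold change of -0.63; with equal library totals the counts were 4 higher and 10 lower. Trim28, the corepressor that recruits Setdb1, had 25531, 27002 and 27003 in the E13.5 libraries and 7973, 7934 and 9185 in the P3 libraries (log2 fold change -1.67, SE 0.08, limma adjusted p 2.05e-12), and the demethylase Kdm4c was at -2.58. For Polycomb, of 20 members tested, 6 were higher, 13 were lower and 1 did not pass, with a median log2 fold change of -0.35, and with equal library totals 7 higher and 8 lower. Ezh2, the H3K27 methyltransferase, had 7135, 6740.1 and 7066 in the E13.5 libraries and 2592, 2445 and 2266 in the P3 libraries (-1.52), whereas its homologue Ezh1 was higher (0.89), as was Cbx8, a chromodomain subunit (2.00).

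**Figure D3:**
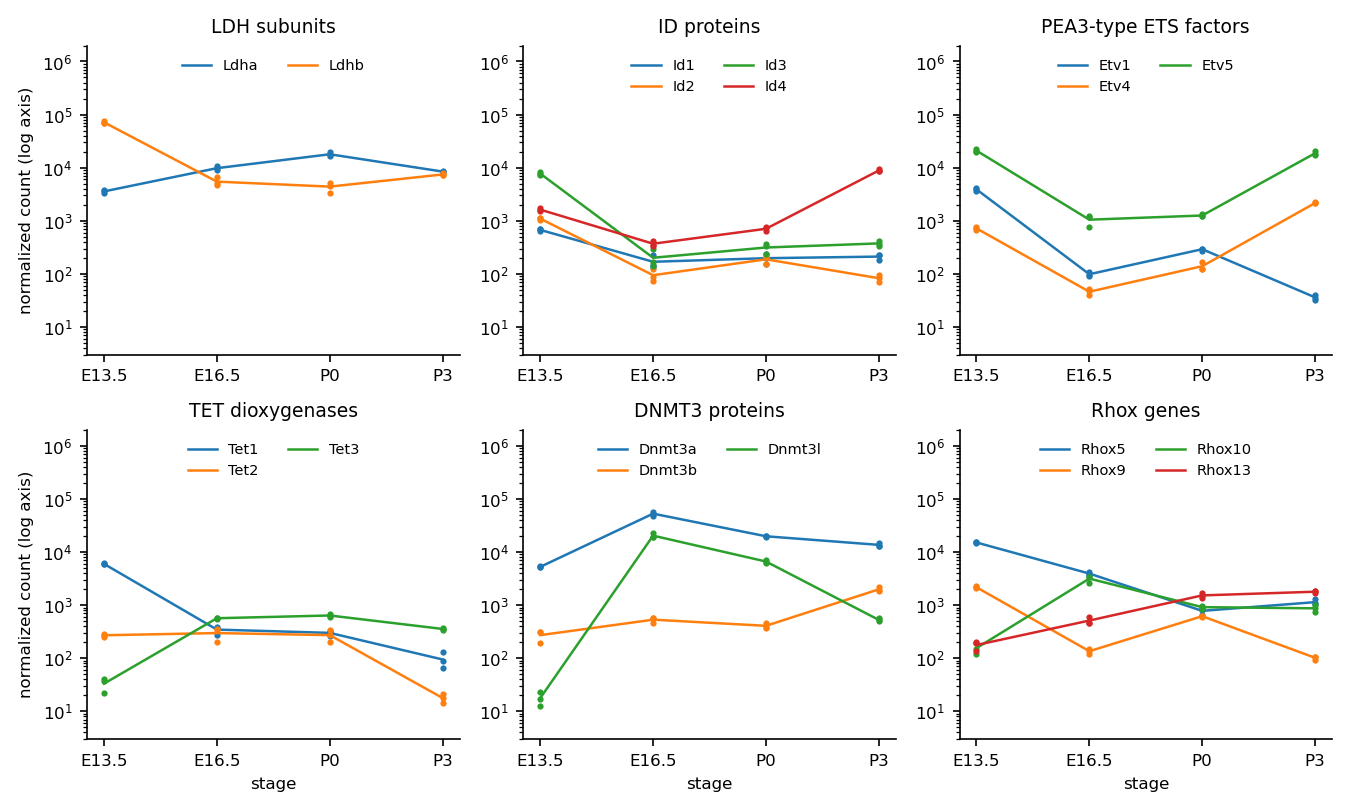
Normalized counts (log axis) of members of 6 gene families at the 4 stages; points are the 3 libraries of a stage and lines join the means. Ldhb lay above Ldha at E13.5 (71577 against 3573) and close to it at P3 (7454 against 8447), and Tet1 and Tet3 changed order between E13.5 and P3.

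Signalling genes were divided within families. Among FGF, GDNF and KIT feedback genes, of 17 members tested, 8 were higher, 6 were lower and 3 did not pass, with a median log2 fold change of 0.01. Of the PEA3-type ETS factors, Etv1 had 4132, 3900.0 and 3676 in the E13.5 libraries and 40.7, 35.4 and 32.4 in the P3 libraries (log2 fold change -6.72, SE 0.14, limma adjusted p 1.6e-16), Etv4 had 764, 736 and 658 in the E13.5 libraries and 2139.6, 2116 and 2218 in the P3 libraries (1.59), and Etv5 did not pass. The receptor Fgfr2 was lower (-3.75), and the inhibitors Spry4 (2.66) and Dusp6, a phosphatase of ERK (1.41), were higher, but Dusp4 was lower (-2.87). Among BMP genes, which signal through SMAD proteins, of 18 members tested, 5 were higher, 7 were lower and 6 did not pass, with a median log2 fold change of -0.02. The ID proteins, which block helix-loop-helix factors, split: Id3 had 7395, 7495 and 8329 in the E13.5 libraries and 419, 339 and 367 in the P3 libraries (-4.37), Id2 and Id1 were at -3.72 and -1.67, and Id4, a mark of stem spermatogonia, had 1756, 1546 and 1567 in the E13.5 libraries and 9284, 8721 and 8578 in the P3 libraries (2.45). In the WNT list, of 25 members tested, 7 were higher, 12 were lower and 6 did not pass, with a median log2 fold change of -0.28; the target Sp5 was lower (-4.27) and the transcription factor Tcf7l2 higher (4.63). With equal library totals the FGF list had 9 higher and 5 lower (median 0.34), the BMP list 9 higher and 6 lower (median 0.31), which turns its balance, and the WNT list 9 higher and 10 lower (median 0.04).

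Genes of energy metabolism were lower at P3 more often than higher, relative to the scaling of the file, as were abundant genes of all kinds. Of the 1120 genes with a mean of at least 10000, 196 were higher and 742 lower. Whether the metabolic lists differ from other abundant genes was not tested. In glycolysis, of 19 members tested, 6 were higher, 10 were lower and 3 did not pass, with a median log2 fold change of -0.42, and the counts were 8 higher and 8 lower with equal library totals. The subunits of lactate dehydrogenase moved in opposite directions: Ldhb had 67947, 70374 and 76411 in the E13.5 libraries and 7907, 7292 and 7162 in the P3 libraries (log2 fold change -3.26, SE 0.13, limma adjusted p 4.43e-13), and Ldha had 3328, 3736 and 3656 in the E13.5 libraries and 8756, 8352 and 8232 in the P3 libraries (1.24). Aldoc, an aldolase of brain type, and the hexokinase Hk2 were higher, by 3.32 and 1.91. The fall of Pgk1 (-2.94) is less certain, since 53.9% of its 50-base words occur in other transcripts. In oxidative phosphorylation, of 19 members tested, 2 were higher, 14 were lower and 3 did not pass, with a median log2 fold change of -0.60, or 3 higher and 10 lower with equal library totals. Atp5b, a subunit of ATP synthase, had 300365, 304691 and 323685 in the E13.5 libraries and 124364, 120429.8 and 114514 in the P3 libraries (-1.37).

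Genes of p53 and apoptosis were lower for 10 of 19 members and higher for 5, with a median log2 fold change of -0.31. With equal library totals 9 were lower and 6 higher, with a median of -0.0095. Trp53 (p53) had 16812, 17111 and 18394 in the E13.5 libraries and 4160.1, 3955 and 4058 in the P3 libraries (log2 fold change -2.10, SE 0.09, limma adjusted p 1.63e-12), its target Bbc3 (Puma) was at -1.65, and the death genes Bik and Bid were higher, by 1.63 and 0.82. In the adhesion list, of 24 members tested, 13 were higher, 7 were lower and 4 did not pass, with a median log2 fold change of 0.39. E-cadherin (Cdh1) was lower (-1.73), as was integrin beta 3 (Itgb3, -2.07), and integrin alpha 3 (Itga3) was higher, with 88.7, 65.3 and 67.3 in the E13.5 libraries and 727, 756 and 744 in the P3 libraries (3.33).

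Imprinted genes, expressed from 1 parental allele in most tissues, and the homeobox clusters varied member by member. For imprinted genes, of 25 members tested, 17 were higher, 7 were lower and 1 did not pass, with a median log2 fold change of 1.28; 5 further listed genes did not enter. Peg3, at chromosome 7, 6703892 to 6730431, had 8047, 7354 and 7514 in the E13.5 libraries and 439, 338 and 415 in the P3 libraries (log2 fold change -4.27, SE 0.14, limma adjusted p 3.39e-14), and Usp29, which starts beside it, was at -2.34. On chromosome 12, Dlk1 and the long noncoding RNA Meg3 were higher, with 87.6, 138 and 109 in the E13.5 libraries and 2041, 2130.1 and 2089 in the P3 libraries for Dlk1 (4.24) and 4.08 for Meg3. Igf2 was at 5.71, at 6.53 without E13.5 library 3 and 4.89 without library 4, and 62.8% of its exons overlap another gene. Of 8 genes tested in the X-linked Rhox homeobox cluster, 3 were higher and 4 lower: Rhox5 had 14822, 15408 and 15156 in the E13.5 libraries and 1276, 1106 and 1029 in the P3 libraries (-3.74), and Rhox13 had 134, 194 and 204 in the E13.5 libraries and 1839, 1860.0 and 1664 in the P3 libraries (3.35). Of 27 Hox genes listed, 12 entered the comparison, 11 higher and 1 lower, and 5 of them were at the floor at E13.5; the median was 4.07, or 3.11 with these 5 at their bound. The filter could let a Hox gene in through P3 alone, and a mean of at least 100 left 3 called and no filter 20. Hoxb7, in the cluster on chromosome 11, had 6.33, 6.53 and 2.1 in the E13.5 libraries and 889, 774 and 746 in the P3 libraries (log2 fold change 7.17, SE 0.27, limma adjusted p 1.61e-13), and its neighbours Hoxb6 and Hoxb5 were at least 118-fold and 138-fold higher. Peritubular and stromal markers were higher at P3 as well, and their part in these increases was not tested.

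**Figure D4:**
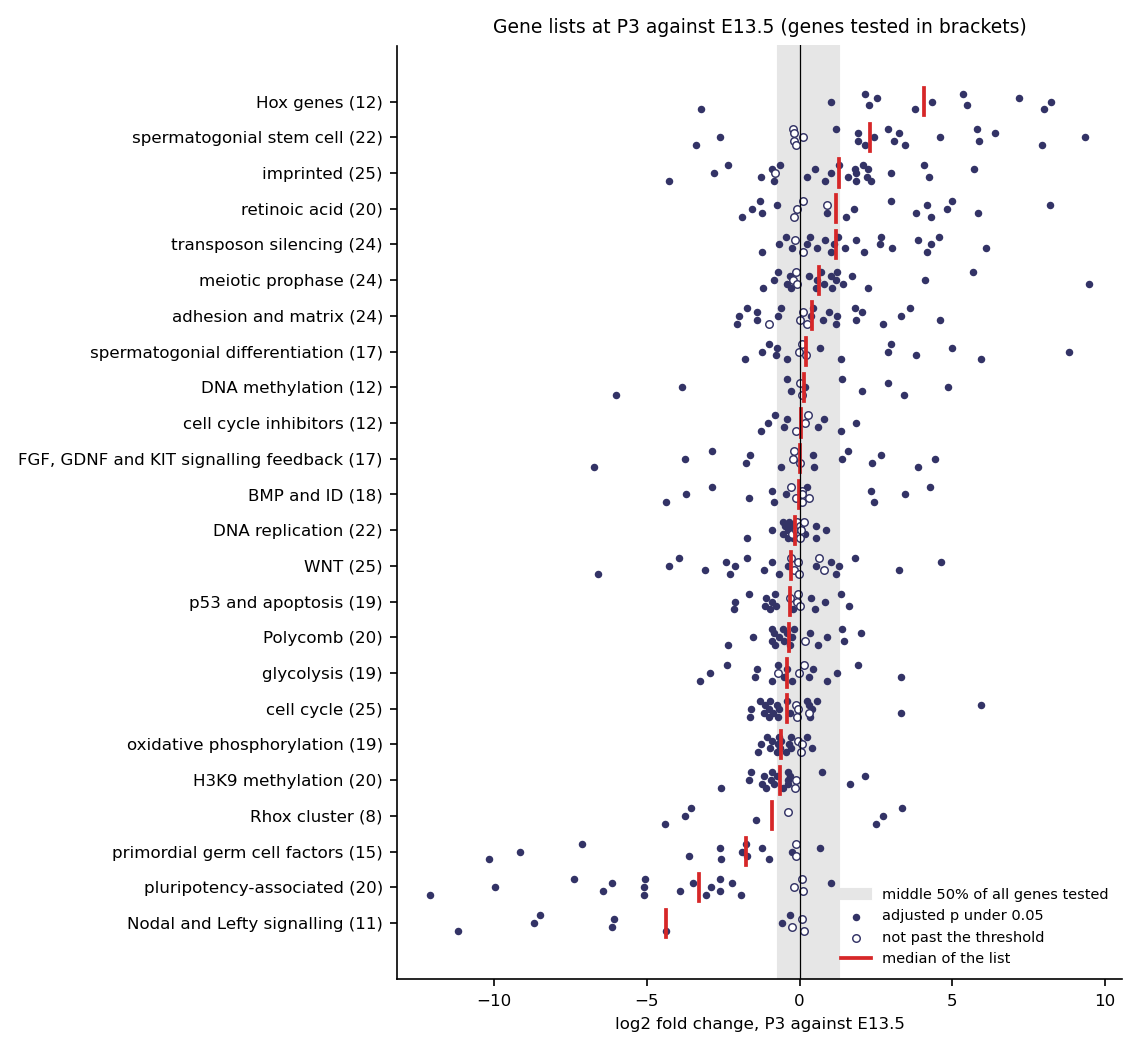
Log2 fold changes, P3 against E13.5, of the members tested in 24 gene lists, ordered by their median (red bar); filled points passed an adjusted p under 0.05 and open points did not. The grey band holds the middle 50% of all genes tested, from -0.72 to 1.29; the DNA replication list lies close to 0, and the Nodal and pluripotency-associated lists lie left of the band by their medians.

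Signal of other cell types moved with the stages too, at low levels. The summed normalized count of 11 peritubular and stromal markers was 236 to 311 at E13.5 and 2159 to 2653 at P3, with 9 of 10 tested higher and Tagln at the floor at E13.5. For 12 Sertoli markers it was 5362 to 7274 and 10642 to 13501, with 5 higher, 1 lower and 5 not passing of 11 tested, and Cldn11 at the floor at both stages. Clu and Inha hold the largest part of the Sertoli sum at P3, and both are higher there. Macrophage markers summed to 38.1 to 128 and 616 to 629, at P3 nearly all from Mrc1 and Cd68, while Adgre1 was at 0 at P3. Leydig markers summed to 774 to 992 and 610.5 to 639, with Insl3 at or under the floor. Endothelial markers summed to 5009 to 5730 at E13.5 and 774 to 950 at P3, where Pecam1 (-3.43) and Cldn5 (-2.42) were lower and Kdr, Vwf and Cdh5 were higher; fetal germ cells are also known to express Pecam1. Female germ cell genes rose too, 3 of 4 tested, with a sum of 112 to 134 and 661 to 839; Figla, a factor of oocytes, was at 3.76. The part of these other cells in the increases above was not tested.

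**Figure D5:**
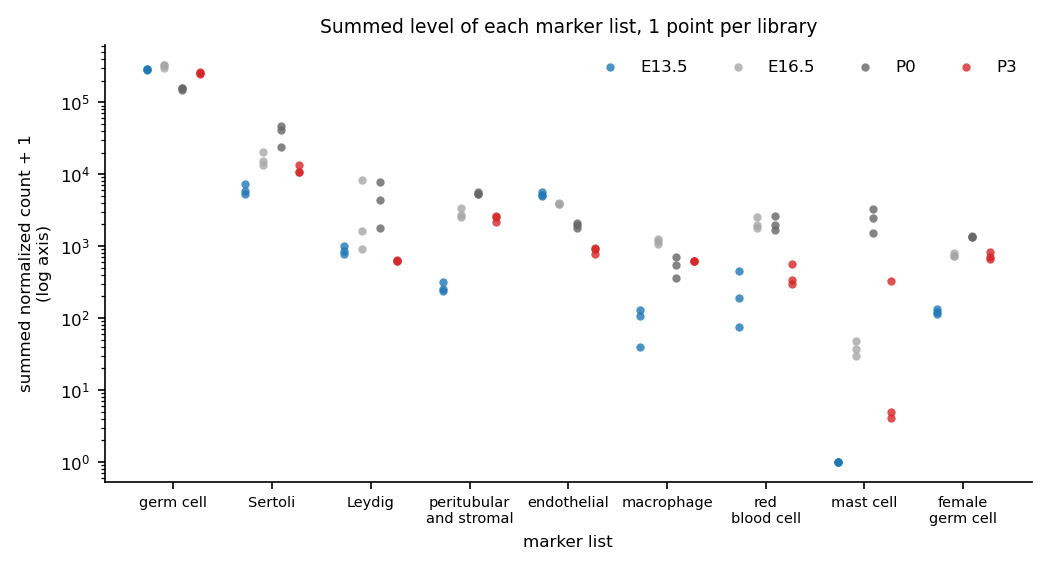
Summed normalized count + 1 (log axis) of 9 marker lists, 1 point per library, at the 4 stages. The 7 germ cell markers sum to 245728 or more in every library of E13.5 and P3, and the peritubular and stromal markers sum to at most 311 at E13.5 and at least 2159 at P3.

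The means at the 2 intermediate stages describe the course between E13.5 and P3, relative to the scaling of the file, which lowers P0 against equal library totals. Of the 485 genes lower at P3 by at least 8-fold, 403 (83.1%) had their highest stage mean at E13.5, against 78.9% of all genes called lower; none can be highest at P3 by this choice. Of these 485, 264 (54.4%) stood at no more than 0.25 of the E13.5 mean by E16.5, against 20.4% of all called lower. Of the 2061 genes higher by at least 8-fold, 943 (45.8%) had their highest mean at P0 and 828 (40.2%) at P3, against 34.4% and 46.3% of all genes called higher. At E16.5, 1737 (84.3%) of the 2061 were at least 4 times the E13.5 mean, against 43.0% of all called higher. The E13.5 mean enters both the choice of genes by size of change and the ratio at E16.5. A larger share than among all genes called is thus partly built in, for the decreases as well. Among the 6718 genes whose 95% interval lay within 2-fold, 1134 were below 0.5 of the lower of the E13.5 and P3 means at both E16.5 and P0; by their means Mcm5, Pcna and Lhx1 followed this course.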

How the data were processed

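The deposited signal values are read counts per gene that the authors divided by a size factor for each library; each gave back whole reads for 100% of genes within 0.001. Per the submitters' processing notes, bcl2fastq 2.20, cutadapt 1.18, HISAT2 2.1.0, featureCounts 1.5.2, DESeq2 1.26.0 and GRCm38 were used; strand and multi-mapping are not given in the sources used here. Gene models of GENCODE M21 gave symbols to 55141 of 55487 identifiers.

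Values were tested as log2(value + 1) in limma 3.58.1 (R 4.3.3), with its mean-variance trend, all 12 libraries (8 residual degrees of freedom), and Benjamini-Hochberg adjustment over 18246 genes. Shared sequence was counted in 50-base words, and 5 motifs were searched in 24 lists; those shown were picked after the counts were seen. Named were the 15 largest changes each way with a stage mean of at least 100, the 8 largest with at least 5000, and 3 list members at each end, plus some chosen after their values were seen. The largest changes were taken only from genes that passed the adjusted p threshold without overlap between the stages. Symbols of predicted genes and pseudogenes were left out of them. Members and lists were chosen with earlier results of these data known. The fit was also run on simulated counts with known size factors and few changed genes. That run does not test the scaling, or data changed as widely as these. Alternatives were other scalings, pseudocounts, filters and fits, edgeR 4.0.16 and DESeq2 1.42.0 on recovered reads (13968 and 13967 genes), and omission of each library. Floors cover counting error only. Intervals of log2 fold changes come from the limma fit and measure the spread between libraries, which may be technical. They do not cover the choice of scaling. A gene among the largest decreases is not reported here.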

Additional observations from a re-analysis of the deposited data

How the results depend on the processing

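Of 192 named genes, 157 kept their side of the threshold under all 18 alternatives, 154 of them with the same sign throughout. With the sign kept, 12 lost a call and 13 gained one under at least 1 alternative. A change of sign in a gene called under either fit was counted apart, in 12 genes. Some genes, such as Mcm2, fall in more than 1 of these counts. The count of genes that differed, 13972, was 13968 in edgeR's quasi-likelihood test and 13967 in DESeq2. The share of increases, 51.5%, was 52.7% with TMM factors, 53.1% with median-of-ratios factors, 65.4% with equal library totals, 56.8% without a filter, 62.2% among changes of at least 2-fold and 41.7% for genes averaging 100 or more, where increases became the minority. A 2-fold minimum left 8308 genes, and 4519 of those averaging 100 or more differed by as much. Without a filter 16686 genes differed. Leaving out 1 library gave 13409 to 13560 genes, shares of 51.5% to 52.3%, and 8171 to 8305 genes changed by 2-fold or more.

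With equal library totals 16 log2 fold changes turned from negative to positive. In 12 of them the gene passed the threshold under at least 1 of the 2 scalings: Lig1 0.075, Mcm2 0.12, Prim1 0.21, Orc1 0.23, Orc6 0.33, Suv39h1 0.18, Acvr2b 0.0022, Aurkb 0.0038, Pcna 0.24, Ccna2 0.28, Dazl 0.22 and Alpl 0.20. The other four, Fen1 0.068, Kdm3a 0.20, E2f2 0.20 and Lhx1 0.11, passed under neither. The cause was not tested. Column numbers did not pair the samples: deviations of same-numbered libraries correlated at -0.019, 0.022 and -0.018. A fit with that number as a replicate block gave 13949 genes, a share of 51.5% and 8302 genes at 2-fold or more. Genes with few reads set the limit of depth: 727 genes were at or under 3 reads in every E13.5 library and 100 in every P3 library, and their fold changes are bounds.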

Other observations

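Of 665 long intergenic noncoding RNAs (lincRNA) tested, 414 (62.3%) were higher at P3 and 132 (19.8%) lower by limma's adjusted p under 0.05, with a median log2 fold change of 1.66. Of 497 antisense genes, 268 were higher and 65 lower, with a median of 1.07. Protein-coding genes were even, with 5899 higher and 5945 lower of 14761. Processed pseudogenes, whose reads can belong to their parent genes, went the other way, with 166 higher and 412 lower of 1228. The difference between these classes was not tested, and classes with few reads enter more often through the stage where they are high.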
